A study of Homo sapiens with 4 samples.

Results

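The 6 h array was compared with the 2 h array of a niclosamide time course, which asks how gene expression went on moving once the drug had been present for 2 h. Members of the comparison were genes with at least 1 probe at a detection p under 0.01 on both arrays, and 9202 of the 9771 genes detected on at least 1 array of the series met that rule. Each time has 1 array, so the comparison has no replicates, no test and no p-value. The cells, labelled Cp70sps and ovarian tumor-initiating cells, were taken from the human Cp70 ovarian cancer line by their exclusion of a Hoechst dye. They were kept in ultra-low attachment plates, in serum-free DMEM/F12 with insulin, BSA, bFGF and EGF. Both compared arrays hold total RNA from cells in 3 µM niclosamide, one harvested at 2 h and the other at 6 h. The 0 h array, at the start of exposure, is the only one without time in the drug, and the 4 h array lies between the compared times. All 4 arrays come from the same selected line, and 0 arrays hold cells kept for 2, 4 or 6 h without the drug, so time in the drug and time in culture cannot be told apart.

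Niclosamide is an anthelmintic that carries protons across the inner mitochondrial membrane and so uncouples respiration from ATP synthesis. A cell under mitochondrial, amino acid or endoplasmic reticulum stress can phosphorylate the translation factor eIF2 alpha, which favours translation of the transcription factor ATF4 and, through it, expression of DDIT3, CHAC1, TRIB3 and genes for amino acid uptake and synthesis. This is the integrated stress response. Hypoxia-inducible factors are stable when their oxygen-dependent hydroxylases are inactive, and they drive genes such as ADM, ANKRD37, HK2 and PFKFB3.

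Levels are log2 normalized intensities of 1 probe, and apart from sums over markers they were compared for the same probe between arrays only, never between genes. A gene was represented by its brightest probe. Between 28.3% and 29.6% of the 48803 probes were detected per array. Over the 9202 genes the median difference between 6 h and 2 h was 0.00 on the log2 scale, with quartiles of -0.15 and 0.15. The robust SD of that difference was 0.216, the narrowest of the 6 pairs of arrays, against 0.396 between 2 h and 0 h and 0.432 between 6 h and 0 h. The only error that the data give is the disagreement between 2 probes of the same gene. Over 1764 genes with exactly 2 detected probes it gave an SD of 0.150 for the 6 h minus 2 h difference of a single probe. That SD was 0.389 for 2 h minus 0 h. It was 0.179 in the dimmest of 3 equal bins of level and 0.120 in the brightest. Both probes read the same RNA, so this error leaves out the spread between cultures, extractions and arrays. RNA was taken from whole cultures, in which fewer cells of a type and less RNA per cell cannot be told apart.

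Few genes differed by much. Of the 9202 genes, 97.1% differed by less than 1.5-fold, 15 were at least 2-fold higher at 6 h (0.163% of genes measured) and 13 were at least 2-fold lower (0.141%). The extremes were CHAC1, 3.08-fold higher, and ANKRD37, 3.94-fold lower. At least 1.5-fold higher were 142 genes (1.54%) and at least 1.5-fold lower were 124 (1.35%). Median scaling in place of quantile normalization left 18 genes at least 2-fold higher and 10 lower, so that 64.3% of the 2-fold genes were higher against 53.6%. Without background correction, with the authors' processed values or with an offset of 50, the higher genes past 2-fold numbered 9 and the lower ones 10 (47.4% higher), which turns the balance. The 15 higher genes were CHAC1, DDIT3, CHKA, ZNF165, INHBE, XBP1, FNIP1, GCNT3, PFKFB2, YPEL2, PPP1R15A, ATF3, HSPBAP1, GRPEL2 and FOSB. The 13 lower genes were ANKRD37, HILPDA, TET1, FAM13A, ADM, CXCR4, SPAAR, PFKFB3, CEBPD, MAP6D1, RASL11B, ANGPTL4 and INSIG2. All 28 kept their direction in every one of the 9 alternatives of processing that measured them, and GCNT3 was measured in 8. The alternatives start from the same arrays, so they cannot show how far these genes would differ between cultures.

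**Figure D1:**
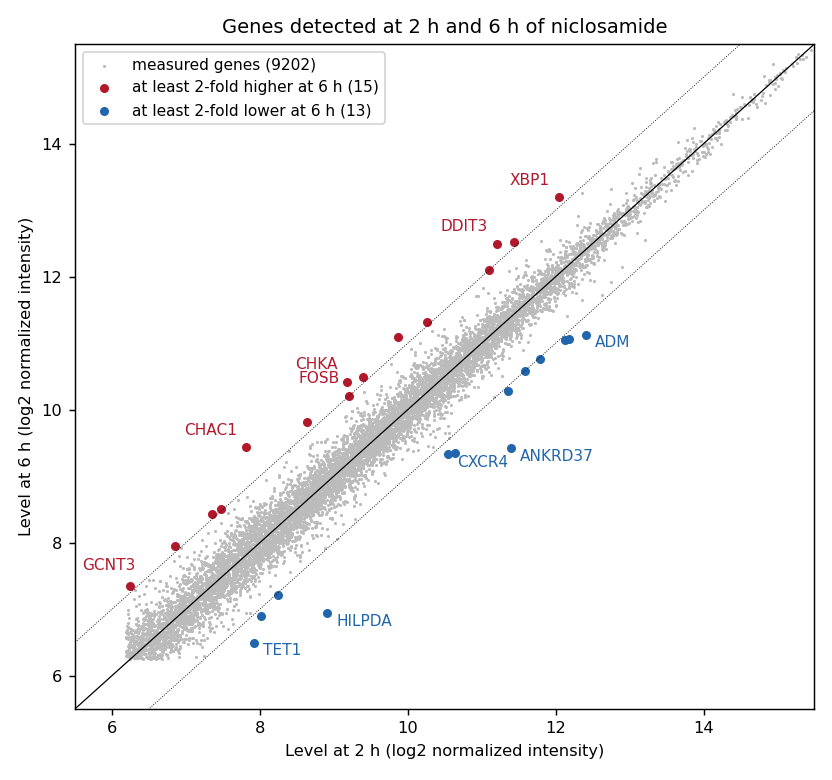
Each point is a gene, with its log2 normalized intensity at 2 h on the horizontal axis and at 6 h on the vertical axis; 1 array per time. The solid line marks equal levels and the dotted lines a 2-fold difference. The 9202 genes lie close to the solid line, with 15 at or above the upper dotted line and 13 at or below the lower one.

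The 4 h array, which did not choose these genes, lay between the 2 h and 6 h levels for 14 of the 15 higher genes (93.3%) and for 12 of the 13 lower genes (92.3%). It did so for 2565 of all 9202 genes (27.9%). The arrays at 2 h and 6 h entered both steps, so a gene picked for a large difference is more often bracketed than one with a small difference. FOSB was the higher gene that stood outside, with 10.36 at 4 h and 10.21 at 6 h. CEBPD was the lower gene that stood outside, with 10.97 at 4 h and 11.04 at 6 h. Among the higher genes the median step was 0.65 from 2 h to 4 h and 0.46 from 4 h to 6 h. Among the lower genes these median steps were -0.74 and -0.40. At 6 h, 14 of the 15 higher genes stood above their 0 h level, 13 of them by at least 1.5-fold. At 2 h, 7 of the 15 had been below their 0 h level, 1 of them by at least 1.5-fold. At 6 h all 13 lower genes stood below their 0 h level, 11 by at least 1.5-fold. At 2 h, 12 of the 13 had been above their 0 h level, but only 2 of them by at least 1.5-fold. Over all 9202 genes, 208 were at least 2-fold higher at 6 h than at 0 h and 169 at least 2-fold lower. The SD of a single probe was 0.366 for 6 h minus 0 h, and 60.9% of genes with exactly 2 probes had 1 sign. The 2 h and 6 h levels both enter the choice of the 15 and 13 genes, which favours their counts against 0 h. All counts for these chosen genes are therefore a description.

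**Figure D2:**
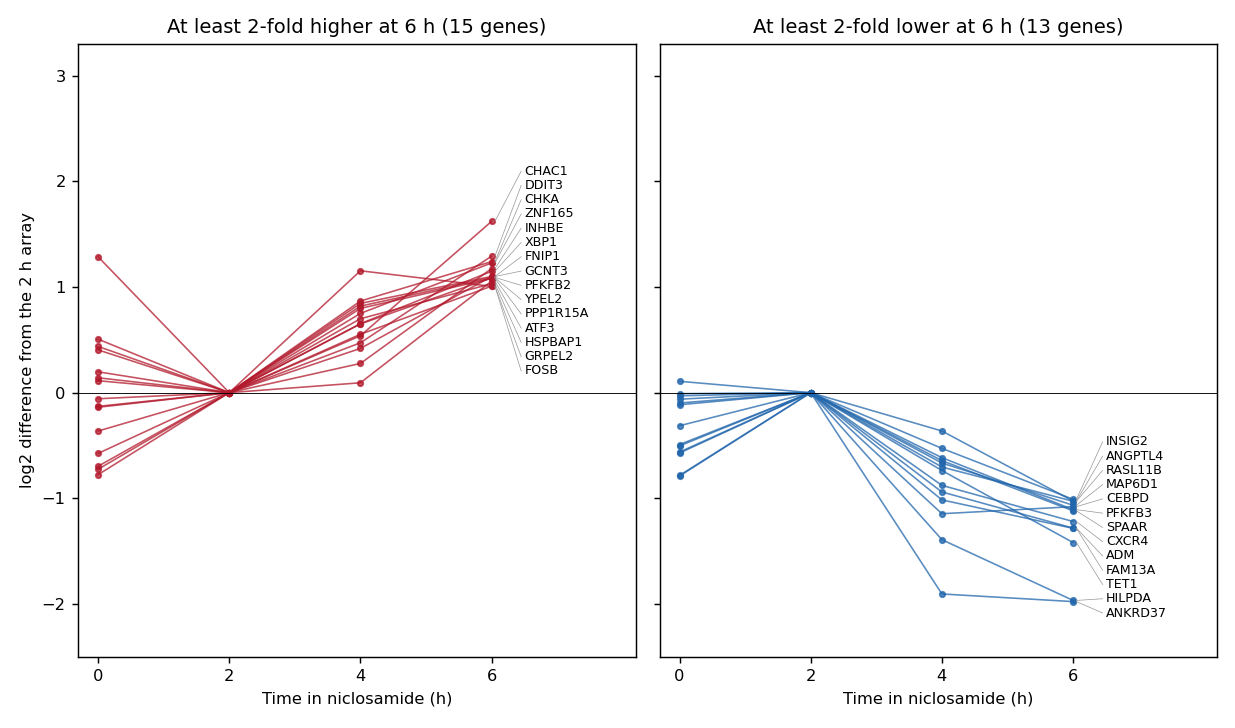
Lines give each gene's log2 difference from its own 2 h level at 0, 2, 4 and 6 h of niclosamide, for the 15 genes at least 2-fold higher at 6 h (left) and the 13 at least 2-fold lower (right); 1 array per time. All left-hand lines lie above the 2 h level at 4 h and all right-hand lines below it. FOSB, the line that starts highest at 0 h on the left, was above its 6 h level at 4 h.

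Promoters are shown for 4 of the higher genes and 2 of the lower ones, because each holds the letters of an element known for the pathway that its gene belongs to or moved with. They are the 250 bases before and 50 after the RefSeq start of the gene, on the strand of the gene, build GRCh38.p14. Capitals mark only the letters of the element for which each promoter is shown. These were TGATGNAA, the C/EBP-ATF element that ATF4 can bind (CHAC1, on the opposite strand, and ATF3), TGACGTCA, the cyclic AMP response element (PPP1R15A), CCAAT and CCACG with 9 bases of any kind between them, the endoplasmic reticulum stress element (XBP1), and ACGTG, the core of the hypoxia response element (ANKRD37 and FAM13A). CHAC1 lies at chr15:40953221-40953520 on the plus strand, ATF3 at chr1:212565157-212565456 on the plus strand, PPP1R15A at chr19:48872171-48872470 on the plus strand, XBP1 at chr22:28800520-28800819 on the minus strand, ANKRD37 at chr4:185396591-185396890 on the plus strand and FAM13A at chr4:89057136-89057435 on the minus strand.
CHAC1: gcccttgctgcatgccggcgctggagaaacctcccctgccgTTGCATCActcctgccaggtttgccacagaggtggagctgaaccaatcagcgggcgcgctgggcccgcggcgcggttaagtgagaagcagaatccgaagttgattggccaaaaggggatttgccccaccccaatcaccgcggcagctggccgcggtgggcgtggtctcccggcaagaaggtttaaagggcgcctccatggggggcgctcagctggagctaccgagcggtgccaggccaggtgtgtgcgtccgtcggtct
ATF3: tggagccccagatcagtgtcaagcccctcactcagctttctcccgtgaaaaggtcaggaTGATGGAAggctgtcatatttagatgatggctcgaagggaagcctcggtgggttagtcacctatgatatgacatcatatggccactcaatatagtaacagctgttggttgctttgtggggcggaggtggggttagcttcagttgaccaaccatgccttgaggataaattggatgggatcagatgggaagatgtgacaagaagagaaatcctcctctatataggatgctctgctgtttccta
PPP1R15A: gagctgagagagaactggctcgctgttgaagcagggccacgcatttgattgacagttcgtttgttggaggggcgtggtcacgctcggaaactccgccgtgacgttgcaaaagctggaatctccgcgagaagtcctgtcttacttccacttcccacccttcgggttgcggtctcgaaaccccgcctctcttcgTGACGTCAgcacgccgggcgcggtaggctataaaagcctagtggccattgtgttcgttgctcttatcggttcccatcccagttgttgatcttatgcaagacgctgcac
XBP1: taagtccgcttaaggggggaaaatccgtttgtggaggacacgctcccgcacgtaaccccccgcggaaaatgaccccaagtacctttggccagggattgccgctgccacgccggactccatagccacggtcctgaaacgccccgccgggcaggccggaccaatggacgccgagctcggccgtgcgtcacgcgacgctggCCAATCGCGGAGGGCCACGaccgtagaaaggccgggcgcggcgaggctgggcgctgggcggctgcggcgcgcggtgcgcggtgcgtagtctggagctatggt
ANKRD37: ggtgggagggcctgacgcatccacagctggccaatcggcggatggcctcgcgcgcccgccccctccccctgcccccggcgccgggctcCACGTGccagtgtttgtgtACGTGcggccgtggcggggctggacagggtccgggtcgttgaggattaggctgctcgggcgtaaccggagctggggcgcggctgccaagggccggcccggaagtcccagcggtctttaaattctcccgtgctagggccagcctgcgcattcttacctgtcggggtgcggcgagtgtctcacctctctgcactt
FAM13A: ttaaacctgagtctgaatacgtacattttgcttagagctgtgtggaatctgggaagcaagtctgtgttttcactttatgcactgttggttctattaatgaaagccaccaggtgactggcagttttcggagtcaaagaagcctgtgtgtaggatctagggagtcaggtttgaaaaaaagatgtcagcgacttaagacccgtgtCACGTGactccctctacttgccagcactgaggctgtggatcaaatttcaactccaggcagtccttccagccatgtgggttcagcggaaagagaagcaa

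Both strands were searched in every promoter of the table, which held 11 of the 15 higher genes and 10 of the 13 lower ones. The C/EBP-ATF element was in 3.67% of all 27305 promoters and in 1.65% of the 7647 promoters of measured genes. It was in 2 of the 15 promoters at hand for the integrated stress response list, at -209 to -202 of CHAC1 and at -191 to -184 of ATF3. The cyclic AMP response element was in 1.98% of all promoters and 3.58% of those of measured genes, and PPP1R15A held it at -58 to -51. The endoplasmic reticulum stress element was in 0.0806% of all promoters and 0.157% of those of measured genes. It was in 6 of the 20 promoters of the unfolded protein response list, XBP1 among them at -52 to -34. That list holds genes already known for this response, so its share is a description. The hypoxia core was in 21.6% of all promoters, in 27.9% of those of measured genes, in 4 of the 10 promoters of lower genes and in 3 of the 11 of higher genes. Those 3 higher genes were FNIP1, HSPBAP1 and XBP1. The core of XBP1, at -202 to -198, is left in lower case above. In the hypoxia-inducible factor list the core was in 16 of the 25 promoters (64.0%). Its genes are listed because these factors are known to bind near many of them. ACGTG within CACGTG reads the same on both strands and was found on each, as at -162 to -157 of ANKRD37 and -48 to -43 of FAM13A. Beyond that overlap ANKRD37 held a second core at -143 to -139. A match in these windows is a description of letters and not of a bound site.

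Genes of the integrated stress response were the most displaced of the lists, with a median difference of 0.73 over 19 measured members against 0.00 over all genes. The lists were chosen with earlier results of these data known, so this rank is a description. Of the 19, 13 were at least 1.5-fold higher (against 1.54% of all genes), 0 were at least 1.5-fold lower (against 1.35%) and 6 were within 1.5-fold. CHAC1, a cyclotransferase that degrades glutathione, read 7.12, 7.81, 8.35 and 9.43 at 0, 2, 4 and 6 h, and was higher on each later array. Its 6 h level was 1.62 above that at 2 h, or 3.08-fold. DDIT3, which encodes the transcription factor CHOP, read 10.48, 11.21, 11.68 and 12.50, a difference of 1.29 or 2.45-fold. ATF3, a stress-induced repressor of the ATF family, read 9.68, 10.26, 10.35 and 11.31, so that 0.96 of its 1.06 came after 4 h. Beyond the largest differences of each list, the list members named here and below were chosen after their values were seen.

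The regulators of the response also stood higher, while its main activator differed by less. ATF4 itself read 14.48, 14.40, 14.65 and 14.74 by its brightest probe, a difference of 0.34, and its 3 detected probes ranged from -0.23 to 0.60, so they did not agree in sign. CEBPB and CEBPG, bZIP proteins that pair with ATF4, were 0.91 and 0.79 higher. ATF5, a related factor, was 0.64 higher at 6 h than at 2 h but lower than at 0 h, with 11.04, 10.24, 10.55 and 10.87. PPP1R15A, the phosphatase subunit known as GADD34 that removes the phosphate from eIF2 alpha, read 11.58, 11.44, 12.23 and 12.52, a difference of 1.08. TRIB3, a pseudokinase that restrains ATF4 and DDIT3, read 11.72, 11.80, 11.86 and 12.54, so that 0.68 of its 0.74 came after 4 h. In a separate list of eIF2 alpha kinases, eIF2B and phosphatase subunits, which leaves out PPP1R15A, 0 of 12 measured genes were 1.5-fold different, with a median of 0.04. PPP1R15B and EIF2AK3 (PERK) were 0.52 and 0.51 higher and OMA1, a protease that relays mitochondrial stress, differed by -0.48.

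Secreted and effector genes of the response were also mostly higher at 6 h. INHBE, a subunit of activin-type ligands, read 9.05, 8.64, 8.92 and 9.82 and was 1.17 higher at 6 h than at 2 h. GDF15, a circulating stress cytokine, was 0.59 higher, and STC2, a secreted glycoprotein, 0.67 higher. SESN2 and DDIT4, both inhibitors of mTORC1 signalling, were 0.75 and 0.49 higher. The members that were below 0 were VLDLR, a lipoprotein receptor, at -0.58 and EIF4EBP1, a repressor of cap-dependent translation, at -0.04. The later step was the more positive for 14 of the 19 members (46.3% of all genes), with medians of 0.19 from 2 h to 4 h and 0.48 from 4 h to 6 h. SESN2 and GDF15 were lower at 4 h than at 2 h before their 6 h levels. PPP1R15A and KLHL24, a ubiquitin ligase adaptor, were among the 5 members whose earlier step was the more positive.

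**Figure D3:**
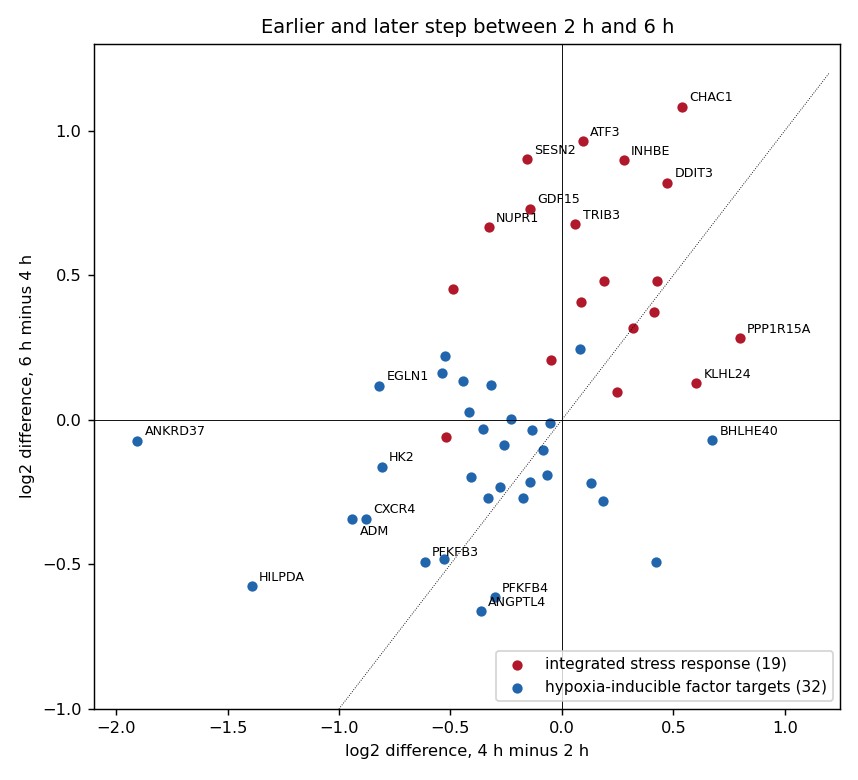
Each point is a measured list member, with its log2 difference from 2 h to 4 h on the horizontal axis and from 4 h to 6 h on the vertical axis; red marks the 19 integrated stress response genes and blue the 32 hypoxia-inducible factor targets. On the dotted line both steps are equal. Red points lie mostly above the horizontal axis, with medians of 0.19 and 0.48, and blue points mostly left of the vertical axis, with medians of -0.32 and -0.18.

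Amino acid supply genes, many of them known ATF4 targets, were displaced in the same direction. All 11 measured amino acid transporters were above 0, against 4610 of all 9202 genes. Their median was 0.50, and 5 were at least 1.5-fold higher (against 1.54% of all genes). SLC1A4 and SLC1A5, carriers of small neutral amino acids, differed by 0.82 and 0.68. SLC3A2 and SLC7A5, the heavy and light chains of the exchanger for large neutral amino acids, differed by 0.77 and 0.76, and SLC7A1, which carries arginine and lysine, by 0.65. SLC7A5 read 11.48, 10.94, 11.52 and 11.71, and so was lowest at 2 h. For serine, proline, asparagine and single-carbon synthesis the median was 0.45 over 13 members, with 12 above 0 (4610 of all 9202 genes). At least 1.5-fold higher were 2 (against 1.54% of all genes). Those were PSPH, the last enzyme of serine synthesis, at 0.73 with its other probe at 0.65, and CTH, which makes cysteine, at 0.66. MTHFD2 and PHGDH were both at 0.58 and ASNS, asparagine synthetase, at 0.45, all within 1.5-fold. The other probe of ASNS differed by 0.21. Where the probe of smallest difference stood for each gene, the list median was 0.26 in place of 0.45. ALDH18A1, of proline synthesis, differed by -0.38. The cytosolic aminoacyl-tRNA synthetases had a median of 0.23 over 19 members. Of these, 2 were at least 1.5-fold higher (against 1.54% of all genes), CARS1 at 0.85 and TARS1 at 0.72.

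Endoplasmic reticulum stress genes were split. XBP1, the transcription factor of the IRE1 branch, read 11.99, 12.04, 12.70 and 13.19, and its 2 h level was close to its 0 h level. The difference between 6 h and 2 h was 1.15, and its other probe, which read 11.56, 12.02, 12.47 and 13.13, gave 1.11. CREBRF, a regulator of the CREB3 arm of the response, was 0.98 and 1.04 higher by its probes. DNAJB9, a chaperone that binds IRE1, was 0.65 higher, and HSPA5, the lumenal HSP70 known as BiP, was 0.53 higher and within 1.5-fold. The other 18 of 22 measured members lay between -0.18 and 0.28, so the median was 0.09. At least 1.5-fold higher were 3 members (against 1.54% of all genes), and 0 were at least 1.5-fold lower. SDF2L1, CRELD2 and PDIA4, chaperones and folding factors of the lumen, were at -0.18, -0.04 and -0.12.

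Hypoxia-inducible factor targets were displaced downwards, with a median of -0.38 over 32 measured members. Of the 32, 30 were below 0, against 4577 of all 9202 genes. At least 1.5-fold lower were 12 of the 32 (against 1.35% of all genes), and 1 was at least 1.5-fold higher (against 1.54%). ANKRD37, an ankyrin-repeat protein, read 10.61, 11.40, 9.49 and 9.42 at 0, 2, 4 and 6 h, high at 2 h and low on both later arrays. Its difference was -1.98, or 3.94-fold lower at 6 h. HILPDA, which blocks lipolysis at lipid droplets, read 8.34, 8.91, 7.52 and 6.94, a difference of -1.97. ADM, the precursor of the vasodilator adrenomedullin, read 12.40, 12.41, 11.47 and 11.13, so that its 0 h and 2 h levels were alike and both later levels lower. CXCR4, the chemokine receptor, read 10.45, 10.55, 9.67 and 9.33, and its probes gave -1.22 and -1.33.

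Genes of glucose use in the list differed by unequal amounts. PFKFB3 and PFKFB4, bifunctional enzymes that set the level of an activator of phosphofructokinase, differed by -1.11 and -0.91, and the other probe of PFKFB3 by -1.04. HK2, an inducible hexokinase and so itself a glycolytic enzyme, differed by -0.97 by its brighter probe and by -0.56 by the other. SLC2A1 and SLC2A3, glucose transporters, were at -0.51 and -0.35, both within 1.5-fold. The glycolysis and lactate export list, which does not hold HK2, had a median of -0.06 over 16 members and 0 past 1.5-fold, with a range from -0.23 for ALDOA to 0.12 for GPI. LDHA, PGK1 and ENO1, also known targets of these factors, differed by -0.07, -0.15 and -0.00. PFKFB2, the heart-type relative of PFKFB3, had the opposite sign at 1.09, reading 6.08, 6.85, 7.67 and 7.94. Its other probe differed by 0.16 only, so the 2-fold difference rests on 1 of its 2 probes.

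Lipid and feedback genes of the same list were also lower. ANGPTL4, an inhibitor of lipoprotein lipase, read 11.47, 11.78, 11.42 and 10.76, a difference of -1.03, and its other probe differed by -0.71. INSIG2, which retains the sterol sensor complex in the endoplasmic reticulum, was 11.58 at 2 h and 10.57 at 6 h. EGLN1, the prolyl hydroxylase that marks HIF1A for destruction, and MXI1, an antagonist of MYC, differed by -0.70 and -0.60. BHLHE40, a repressor of the circadian clock family, was the exception at 0.60, with 11.93, 12.31, 12.98 and 12.91. VEGFA, the angiogenic growth factor, differed by -0.07 and its other probe by 0.03. VEGFA had read 9.42 at 0 h and 7.94 at 2 h, so its large step came before the interval compared here. Of 12 members with several detected probes, 11 had every probe of 1 sign, as did 1396 of all 2092 genes with several. For 22 of the 32 the step from 2 h to 4 h was the more negative (46.3% of all genes), with a median of -0.32, against -0.18 from 4 h to 6 h. A separate list of the factors and their oxygen sensors, which leaves out EGLN1, had a median of 0.07 over 5 members and 0 past 1.5-fold, with HIF1A at 0.07 and EPAS1 at -0.05.

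Genes of the mitochondrion itself differed little. Oxidative phosphorylation genes of the nucleus, 36 in number, had a median of -0.05, the 22 genes of the tricarboxylic acid cycle -0.03 and the 14 of mitochondrial biogenesis and dynamics 0.10, each with 0 members past 1.5-fold. Of 20 mitochondrial chaperones, proteases and import factors, 1 was past 1.5-fold. That was GRPEL2, a nucleotide exchange factor of mitochondrial HSP70, which read 10.73, 11.10, 11.65 and 12.10 and was 1.01 higher. Its partner paralogue GRPEL1 differed by -0.45. Among 15 regulators of AMPK and mTORC1, FNIP1, a folliculin partner that AMPK phosphorylates, read 9.59, 9.39, 10.24 and 10.49 and was 1.10 higher. TSC1, an inhibitor of mTORC1, was 0.67 higher and 0.83 by its other probe. SESN1, a sestrin, differed by -0.63, opposite to SESN2. RRAGC, a GTPase that brings mTORC1 to the lysosome, was 0.72 higher and was the 1 member past 1.5-fold of 26 autophagy and lysosome genes, whose median was 0.18.

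Lipid synthesis genes gave a mixed picture. CHKA, choline kinase, which starts phosphatidylcholine synthesis, read 9.61, 9.17, 10.04 and 10.42, a difference of 1.24, and its other probe gave 1.17. The other 10 measured genes of phosphatidylcholine and phosphatidylethanolamine synthesis lay within 1.5-fold, and CHKB, the paralogue of CHKA, differed by -0.19. The cholesterol synthesis list had a median of 0.28 over 16 members, 12 of them above 0 (4610 of all 9202 genes). CYP51A1, a demethylase of the pathway, was the 1 member past 1.5-fold at 0.64, and it read 9.39, 8.49, 9.31 and 9.13, below its 0 h level at 6 h. HMGCS1 and NSDHL, enzymes of the same pathway, were at 0.54 and 0.53, and for both the 2 h level was the lowest of the 4. Fatty acid synthesis had a median of -0.01 over 11 members and 0 past 1.5-fold.

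**Figure D4:**
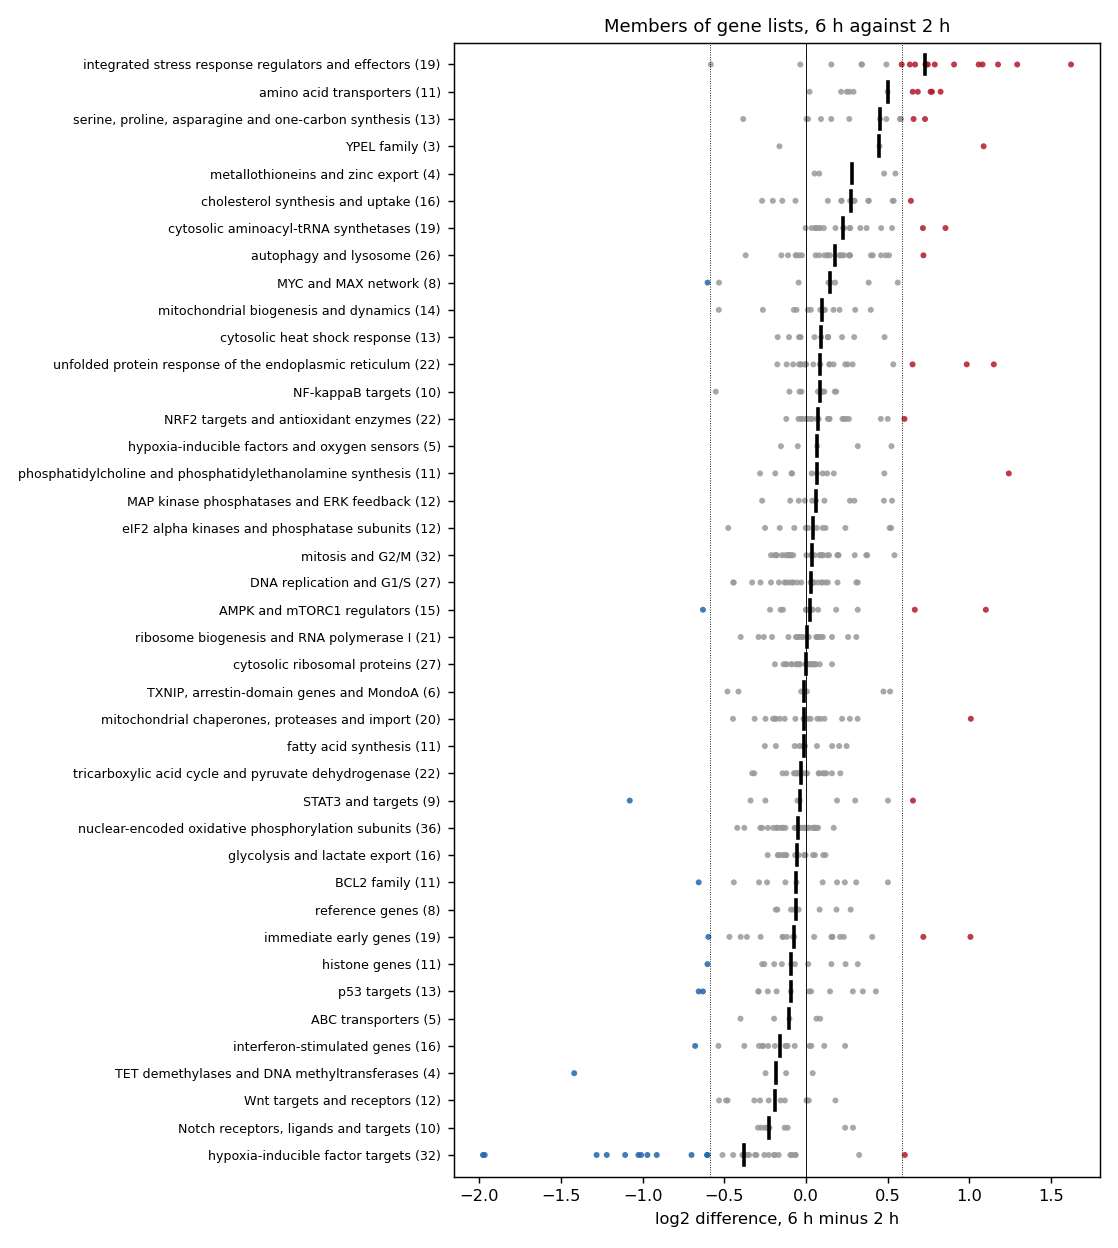
Points give the log2 difference between 6 h and 2 h of each measured member of 41 gene lists, with the number measured in brackets; black bars are list medians, dotted lines mark 1.5-fold, red points are at least 1.5-fold higher and blue points at least 1.5-fold lower. The integrated stress response has the highest median, 0.73, and hypoxia-inducible factor targets the lowest, -0.38. The lists were chosen with earlier results of these data known.

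Of the 15 higher genes, 11 belong to a list, and the other 4 were ZNF165, GCNT3, PFKFB2 and HSPBAP1. ZNF165, a zinc finger protein of testis and tumours, read 9.98, 9.87, 10.62 and 11.10, a difference of 1.23. GCNT3, a glycosyltransferase of mucin type O-glycans, read 6.11, 6.24, 6.66 and 7.34, near the floor of detection at 2 h. HSPBAP1, a binding partner of the small heat shock protein HSPB1, read 7.98, 7.47, 8.17 and 8.51, a difference of 1.03. YPEL2, of the yippee family of small zinc-binding proteins, read 7.22 at 0 h, 7.35 at 2 h and 8.43 at 6 h, with its 4 h level between the latter, and YPEL5 and YPEL1 differed by 0.45 and -0.16. FOSB, a partner of JUN in the AP-1 factor, read 10.49, 9.20, 10.36 and 10.21, so that its 6 h level lay between those of 2 h and 0 h. FOS, its relative, was 0.72 higher and read 9.62, 9.85, 10.21 and 10.56. The immediate early list as a whole had a median of -0.07 over 19 members, with JUN at -0.40 and CCN1 at -0.47. Just below 2-fold were TRIML2 at 0.99, MOSPD1 at 0.97, and ADM5 and OVGP1 at 0.94 each.

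Of the 13 lower genes, 9 belong to a list, and the other 4 were FAM13A, SPAAR, MAP6D1 and RASL11B. FAM13A had 3 detected probes, and they differed by -1.28, by -1.17 and, in the dimmest, by just past 2-fold lower. Its brightest probe read 10.13, 10.63, 9.62 and 9.35. TET1, a dioxygenase that oxidizes methylated cytosine, read 7.35, 7.91, 7.18 and 6.49, a difference of -1.42. DNMT1, the maintenance methyltransferase, differed by 0.04, and UHRF1, its recruiting partner, by -0.25 by one probe and by 0.04 by the other. CEBPD, a factor of the C/EBP family, read 11.34, 12.12, 10.97 and 11.04, higher on the 2 h array than on the other 3, and its sign was opposite to CEBPB and CEBPG. SPAAR, a small peptide that restrains mTORC1 at the lysosome, read 7.95, 8.02, 7.37 and 6.90. MAP6D1, a microtubule-binding protein, read 11.46, 11.35, 10.68 and 10.28, and RASL11B, a small GTPase of the RAS family, 8.21, 8.25, 7.54 and 7.22. Just short of 2-fold were IER5L at -0.99, LRRC26, a potassium channel subunit, at -0.98, PHLDA1 and DLK2 at -0.97, PPP1R3B, which brings a phosphatase to glycogen, at -0.95 and PPAN, a ribosome assembly factor, at -0.93.

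Second probes gave the one check within the data. In 2092 genes with several detected probes, every probe was at least 2-fold higher in 2 (0.0956%) and at least 2-fold lower in 3 (0.143%). Those were CHKA and XBP1, and CXCR4, FAM13A and PFKFB3. Every probe was at least 1.5-fold higher in 12 genes (0.574%) and at least 1.5-fold lower in 11 (0.526%). The other 10 higher genes were CREBRF, HOXC6, N4BP2L1, ATOSA, ZSWIM4, GEM, TSC1, PSPH, MAFG and KLF11. HOXC6, a homeobox factor, read 11.10, 11.01, 11.32 and 11.83, and its probes differed by 0.82 and 0.84. MAFG, a small MAF partner of NRF2, differed by 0.60 and 0.77, while the other 21 of 22 measured NRF2 targets and antioxidant genes lay within 1.5-fold. The other 8 lower genes were PDGFB, ANGPTL4, ISM2, APBB3, RIMKLA, H2BC5, MXI1 and TAF15. PDGFB, a growth factor chain, read 8.83, 7.73 and 8.11 at 2, 4 and 6 h, high at 2 h, and its probes differed by -0.72 and -1.05. Just short of 1.5-fold by their smaller probe were WHAMM (0.77 and 0.56) and CRY1, a clock repressor (0.56 and 0.58). In the other direction these were ANKRD16 (-0.73 and -0.56), NOL3 (-0.56 and -0.91) and RCC1 (-0.55 and -0.80).

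Agreement between probes followed the size of the difference. Where the brightest probe was at least 2-fold different, every probe had 1 sign in 3 of 3 higher and 4 of 4 lower genes, which include the brightest probe that chose them. Between 1.5-fold and 2-fold this held for 18 of 19 higher and 18 of 21 lower genes. The exceptions were WDR20, with probes from -0.08 to 0.86, EGR3, from -0.60 to 0.32, JADE1, from -0.68 to 0.50, and TAF5L, from -0.67 to 0.19. No direction is given for these, and all but EGR3 were named after their values were seen. Under 0.25 on the log2 scale every probe had 1 sign in 57.3% of genes that were higher and 65.0% that were lower. Across the 1764 genes with exactly 2 probes the Pearson r between their differences was 0.63, as a description, since the probes share both RNA samples. It was 0.07 for 2 h minus 0 h and 0.35 for 6 h minus 4 h. Of the 15 genes at least 2-fold higher, 12 had 1 detected probe and so lack this check, as did 9 of the 13 lower genes.

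**Figure D5:**
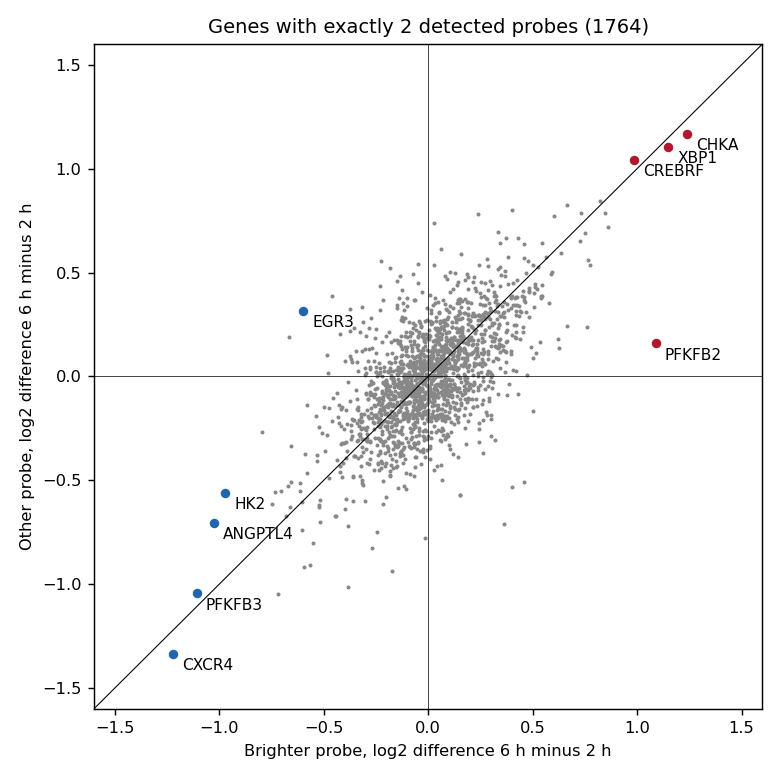
Each point is 1 of 1764 genes with exactly 2 detected probes, with the log2 difference between 6 h and 2 h of the brighter probe on the horizontal axis and of the other probe on the vertical axis. On the diagonal both probes give the same difference (Pearson r 0.63 across genes). CHKA and XBP1 lie far out in the upper right corner and CXCR4 and PFKFB3 in the lower left, whereas PFKFB2 and EGR3 lie off the diagonal.

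Cell cycle genes stood apart at 4 h but not between 2 h and 6 h. The 32 mitosis and G2/M genes had a median of 0.03 between 6 h and 2 h and 0 past 1.5-fold. Their median was 0.47 from 2 h to 4 h and -0.44 from 4 h to 6 h, and 31 of the 32 were higher at 4 h than at 2 h, as were 53.7% of all genes. KIF23, a kinesin of the midbody, read 8.66, 8.17, 8.97 and 8.71. The 27 DNA replication and G1/S genes had a median of 0.03 between 6 h and 2 h, with RRM2, a subunit of ribonucleotide reductase, and GINS2, a part of the replicative helicase, both at -0.44. Over all genes, the 4 h level was at least 1.5-fold above both neighbours in 37 genes (0.402%) and at least 1.5-fold below both in 87 (0.945%). The part of the 4 h array or its culture in these steps was not tested.

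Signalling and growth genes differed by unequal amounts over the interval. MYC read 11.79, 11.66, 11.56 and 11.13, a difference of -0.53, and -0.38 by its other probe. AXIN2, a feedback target of Wnt signalling, differed by -0.28 and NOTCH1 by -0.11, and the Wnt list and the Notch list had medians of -0.19 and -0.23 with 0 members past 1.5-fold. STAT3 itself differed by -0.05, with its 3 probes from -0.09 to 0.13, and in its list PIM1, a kinase, was at 0.65 and CEBPD at -1.08, both past 1.5-fold. Among 13 p53 targets, BAX, a pore-forming member of the BCL2 family, and SESN1 were past 1.5-fold by their brightest probe. By that probe BAX read 10.90, 11.55, 10.84 and 10.90, high at 2 h alone. The other probe of BAX read 8.65, 9.91, 9.15 and 9.40, above its 0 h level at 4 h and 6 h too. It differed by -0.51 between 6 h and 2 h, within 1.5-fold. CDKN1A, the cell cycle inhibitor p21, differed by 0.15 by one probe and by -0.05 by the other. MCL1, which protects from apoptosis, differed by 0.50 by one probe and by 0.09 by the other. TXNIP differed by -0.03, CCND1, which encodes cyclin D1, by -0.08 and HMOX1, a heme oxygenase, by 0.13. Of the 41 lists, 20 had 0 members past 1.5-fold, and their medians were at most 0.28 in size. Ribosomal proteins, with a median of 0.00 over 27 members, and 8 reference genes, with -0.06, were among them.

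The cell labels were checked against markers. Of 13 markers of ovarian carcinoma epithelium 4 were detected on both arrays (EPCAM, KRT18, KRT19 and MUC1), whereas PAX8, WT1, MUC16, CDH1 and KRT7 were not. KRT19 differed by -0.60, the 1 marker past 1.5-fold, KRT18 by -0.20, EPCAM by 0.00 and MUC1 by 0.02. Of 10 tumour-initiating and side population markers, ALDH1A1 and CD24 were detected on both, at differences of -0.06 and -0.11, and CD44, KIT, PROM1 and ABCG2 were not. Of 7 fibroblast markers 5 were detected, with COL1A2 at -0.52, COL3A1 at -0.41, LUM at -0.12, DCN at -0.01 and ACTA2 at 0.00, a median of -0.12. Their summed normalized intensity was 9707 at 2 h and 7932 at 6 h. The brightest probe weighs most in such a sum, here that of COL1A2, at 12.28 at 2 h and 11.76 at 6 h. Summed epithelial marker intensity was 6736 at 2 h and 5887 at 6 h, with KRT18 the largest part, at 12.51 and 12.31 on the log2 scale. Of leukocyte markers CD68 alone was detected, at 0.02, and of endothelial and erythroid markers 0. The part of these levels in the differences above was not tested.

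Genes outside the rule could be given bounds only. Detected at 6 h but not at 2 h were 111 genes, and 195 were detected at 2 h but not at 6 h, with 2 more detected by different probes on the 2 arrays. A bound was set by the lowest level at which any probe was detected on the array that missed the gene. It is a smallest difference, so a bound under 2-fold does not mean that the gene differed by less than 2-fold. The bound reached 2-fold higher for 0 of the 111 genes and 2-fold lower for 1 of the 195. That was NIM1K, a kinase related to AMPK, at 7.83, 7.69, 7.07 and 5.73, which was at least 2.71-fold lower at 6 h. FGF21, a secreted hormone and known ATF4 target, singled out after its values were seen, was at least 1.80-fold higher, reading 6.03, 5.83, 5.94 and 7.03. The 441 genes just inside the detection threshold had a robust SD of 0.297 and ranged from -1.42 to 1.10, which are TET1 and GCNT3. The 637 just outside it had a robust SD of 0.284 and ranged from -0.87 to 0.95.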

How the data were processed

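Total RNA of 4 cultures, 1 for each of 0, 2, 4 and 6 h, was DNase-treated, labelled with biotin and hybridized to Illumina bead arrays of 48803 probes, per the labels' protocols. The authors deposited an intensity per probe and array, not normalized, for which BeadStudio is named per the submitters' processing notes, and whose version and settings are not given in the sources used here. Beside it, per the file headers, stands a detection p-value of each probe against negative controls. The authors' processed intensity values equal a linear quantile normalization of the same values within 1.46%, with no background subtraction, and served as an alternative. All sample columns were used.

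Non-normalized intensities were background-corrected by the normexp model, with the level of the negative controls inferred from their detection p-values, given an offset of 16, put on the log2 scale and quantile normalized over the 4 arrays (neqc, limma 3.58.1 in R 4.3.3). The steps were tested on simulated data. Later steps used Python 3.11.15 with pandas 2.3.3 and numpy 2.4.6. Of the probes, 27578 had 1 gene symbol in the platform annotation used, 13 had several and 21212 were left unnamed, and 27541 of 27591 annotated probes had an Entrez identifier in the RefSeq table. Among probes detected at both times (p under 0.01), the one with the highest mean level stood for its gene. Folds of 2 for single genes, and of 1.5 for lists and for genes with several probes, were counted. A gene detected at 1 time only was given a bound, set by the lowest level of any detected probe at the other time. Precision is limited by the number of arrays.

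The comparison, its members and the 41 gene lists (785 genes, 616 measured) were chosen with earlier results of these data known. Named were the 20 largest differences in each direction, the 15 genes in each direction with the largest smallest-probe difference, the largest bounds of 2-fold or more (up to 5 either way), up to 4 of the largest differences of each list, and CHAC1, DDIT3, ATF3, ATF4, TRIB3, XBP1, VEGFA, ADM, MYC, CCND1, AXIN2, NOTCH1, STAT3, TXNIP, HMOX1, CHKA and CREBRF. Of the list members so chosen, only those that a result turns on are printed. Others are said in the text to be chosen after their values were seen. Alternatives were the scaling, the background correction, the offset (50), the arrays normalized together, the detection threshold (0.05, or on all 4 arrays) and the probe that stands for a gene. Promoters are those of RefSeq on GRCh38.p14, matched by symbol.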

Additional observations from a re-analysis of the deposited data

How the results depend on the processing

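With no background correction, with the authors' processed values and with an offset of 50, each of which draws dim probes together, 9 genes were at least 2-fold higher at 6 h in place of 15, all of them among the 15, and 10 lower in place of 13. Genes with every probe at least 1.5-fold higher were then 7, 7 and 8 in place of 12, and lower 6, 6 and 7 in place of 11. The 2-fold counts were 18 and 10 after median scaling, which moved the median of all genes to 0.03, and 19 and 17 at a detection p under 0.05. PFKFB2 was 0.16 rather than 1.09 where its other probe stood for it. Among 1861 values of named genes under the alternatives 77 moved by more than the probe SD of 0.150. Among 405 values of list medians and member counts, 2 moved, and both were medians that moved by more than that SD. They were serine synthesis, to 0.26, and TET and methyltransferase genes, to -0.02, with the probe of smallest difference. The medians of 7 lists, at most 0.09 in size, changed sign under an alternative. The median of the integrated stress response lay between 0.70 and 0.75 and that of hypoxia-inducible factor targets between -0.40 and -0.35. No paired analysis was possible because each time has 1 array. Dim genes have the larger probe error, and folds near the detection floor are compressed.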

Other observations

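Among probes without a gene name here, 1928 were detected at both times, of which 2 had a 6 h level at least 2-fold above (0.104%) and 4 at least 2-fold below that of 2 h (0.207%), with extremes of 1.41 and -1.25 on the log2 scale. Metallothionein genes gave near-equal levels at 2 h and 6 h and lower ones at 0 h and 4 h. MT2A read 12.42, 12.97, 12.31 and 13.05 in order of time, and MT1X read 11.94, 12.35, 11.85 and 12.40. SLC30A1, the zinc exporter of the plasma membrane, read 9.51, 9.88, 10.17 and 10.43 and MTF1, the metal-responsive transcription factor, 8.88, 9.88, 9.45 and 10.36. IRF1, an interferon-responsive factor, read 10.05, 7.98, 8.80 and 7.79, so its low levels were those of 2 h and 6 h. IFI27, an interferon-stimulated gene, differed by -0.68 between 6 h and 2 h, the 1 member past 1.5-fold of 16 in its list, whose median was -0.16. IRF1 and the metallothioneins were chosen after their values were seen.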
